A study of Mus musculus with 6 samples.

Results

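5 uroplakin genes (Upk1a, Upk1b, Upk2, Upk3a and Upk3b) and Psca were followed in sorted epithelial cells of the embryonic mouse kidney. They were chosen by symbol, and they are 6 of 17189 genes in the deposited table. All 6 passed the filter on low counts. RNA sequencing compared 3 control with 3 conditional knockout (cKO) libraries of FACS-sorted ureteric bud (UB) cells at E16.5, counted in embryonic days. All embryos carried Hoxb7Cre-GFP, so both groups expressed the recombinase. Controls were Ash2l F/+, with 1 floxed allele, and cKO embryos were Ash2l F/F. Ash2l encodes a core subunit of the histone H3 lysine 4 methyltransferase complexes. Recombination was driven by the Hoxb7 promoter, which is active in the UB lineage. The labels call the replicates biological but do not say whether each was 1 embryo or a pool, so the p-values speak only of how these libraries varied, which may in part be technical.

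Uroplakins are membrane proteins of the urothelium, the lining of the ureter, renal pelvis and bladder. UPK1A and UPK1B are tetraspanins, which span the membrane several times. UPK1A pairs with UPK2, and UPK1B pairs with UPK3A or UPK3B, before the pairs leave the endoplasmic reticulum and assemble into rigid plaques on the apical surface. Loss of Upk3a or Upk2 in mice is known to disturb the urothelium and the outflow of urine. UPK3B is also known as a product of mesothelial cells, which cover internal organs. PSCA is a small protein of the Ly6/uPAR family, tethered to the outer membrane leaflet by a lipid anchor, and is found in urothelium and prostate. The UB forms the collecting ducts inside the kidney, and its trunk becomes the ureter epithelium.

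Promoter sequences from RefSeq were found for Upk3a, Upk1a and Upk3b. They are shown because no promoter was found for the other members, so expression did not guide the choice. In the libraries, Upk3a was low in every cKO library, and Upk1a was low in 2 of them and less so in cKO replicate 3. Upk3b was above the controls in the 2 cKO libraries where Upk1a was low. The 250 bases before each start site lie at chr15:85016891-85017140 on the plus strand (Upk3a), chr7:30612735-30612984 on the minus strand (Upk1a) and chr5:136038246-136038495 on the plus strand (Upk3b), all in GRCm38.p6. This is an older build than the GRCm39 named for the counts. Each run reads 5′ to 3′ along the gene and ends at the base before the start site. Capitals mark matches to 1 of the short motifs described next.
Upk3a: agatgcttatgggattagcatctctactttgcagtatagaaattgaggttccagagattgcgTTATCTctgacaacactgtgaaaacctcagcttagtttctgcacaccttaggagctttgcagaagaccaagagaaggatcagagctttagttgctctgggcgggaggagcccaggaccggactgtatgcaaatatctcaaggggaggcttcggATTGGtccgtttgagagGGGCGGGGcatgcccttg
Upk1a: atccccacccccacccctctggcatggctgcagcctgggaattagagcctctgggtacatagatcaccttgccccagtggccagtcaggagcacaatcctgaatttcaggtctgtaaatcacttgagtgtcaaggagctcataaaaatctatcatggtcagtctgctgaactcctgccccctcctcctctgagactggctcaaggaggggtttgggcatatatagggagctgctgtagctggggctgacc
Upk3b: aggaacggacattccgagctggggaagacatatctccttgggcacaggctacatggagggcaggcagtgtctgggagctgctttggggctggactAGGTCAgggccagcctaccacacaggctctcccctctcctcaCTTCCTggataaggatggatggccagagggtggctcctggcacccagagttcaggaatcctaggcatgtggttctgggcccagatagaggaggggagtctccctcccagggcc

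Both strands were searched for 9 motifs. AACCNGTT stands for GRHL factors, AGGTCA for a nuclear receptor half-site, TGTTTAC for FOXA factors and AGATAA for the GATA family. KLF factors were given by CCCCGCCC as the GC form and by CCACACCC as the CACC form. ETS factors were given by AGGAAG, the TATA box by TATAAA, and the last motif was CCAAT. No match overlapped another. The Upk3a promoter held AGATAA on the minus strand, 188 bases before the start, a motif present in 9.99% of the 32851 promoters of this length in the table. It also held CCAAT at 35 bases, present in 33.8% of promoters, and CCCCGCCC at 18 bases, present in 16.1%, both on the minus strand. In the Upk3b promoter, AGGTCA lay 155 bases before the start (14.0% of promoters) and AGGAAG lay 113 bases before it on the minus strand (29.5%). None of these letter strings was found in the Upk1a window. CpG dinucleotides numbered 6 in the Upk3a window, which is the median of all promoters, 2 in that of Upk3b and 0 in that of Upk1a. More CpG dinucleotides than in the Upk1a window were counted in 92.1% of all promoters, against 71.0% for Upk3b. A match describes the letters only and shows no bound factor.

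Library totals ranged from 9620235 to 10538314 counts. Ash2l, the targeted gene, went from 175 ± 15.6 CPM (counts scaled to library depth, SD, n = 3) in controls to 32.4 ± 12.6 CPM (n = 3) in cKO. In cKO replicates 1, 2 and 3 Ash2l was at 26.3%, 16.9% and 12.2% of the control mean CPM, lowest in replicate 3. Epithelial markers of the UB (Calb1, Epcam, Krt8 and Krt18 had the highest mean CPM of 16 over all 6 libraries) were present in all libraries, as the labelled lineage requires. Their summed level ranged from 11561 to 13004 CPM in controls and from 6673 to 7740 CPM in cKO. In cKO replicate 3, 1453 of 11738 genes (12.4%) that had over 10 counts in all 5 other libraries had no count. The same search in each other library found at most 3 genes. Upk3b and Psca are among the genes listed at 0 there. Results are therefore given with and without that library.

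Upk3a, the UPK1B partner with the long cytoplasmic tail, was by far the most abundant of the 6 genes in controls. Its length-scaled level (FPKM, fragments scaled to gene length and library depth, as deposited) was 209 ± 33.2 in controls (SD, n = 3), which ranked 354 of 17189 genes. Upk1b followed at 46.1 ± 12.7 FPKM and Upk1a at 24.7 ± 6.26 FPKM. The control libraries of these 3 genes did not overlap, with 175 to 241 FPKM for Upk3a, 35.7 to 60.2 for Upk1b and 17.5 to 29.2 for Upk1a. Upk3b (5.8 ± 0.668 FPKM), Psca (4.45 ± 2.09) and Upk2 (4.26 ± 1.35) formed a lower tier in which the libraries overlapped, so no order is given among them. The tetraspanin genes therefore did not match their partners in level. In each control library Upk3a stood 2.9, 5.03 and 6.74 times above Upk1b in FPKM, while Upk1a stood 6.49, 5.18 and 5.96 times above Upk2.

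**Figure D1:**
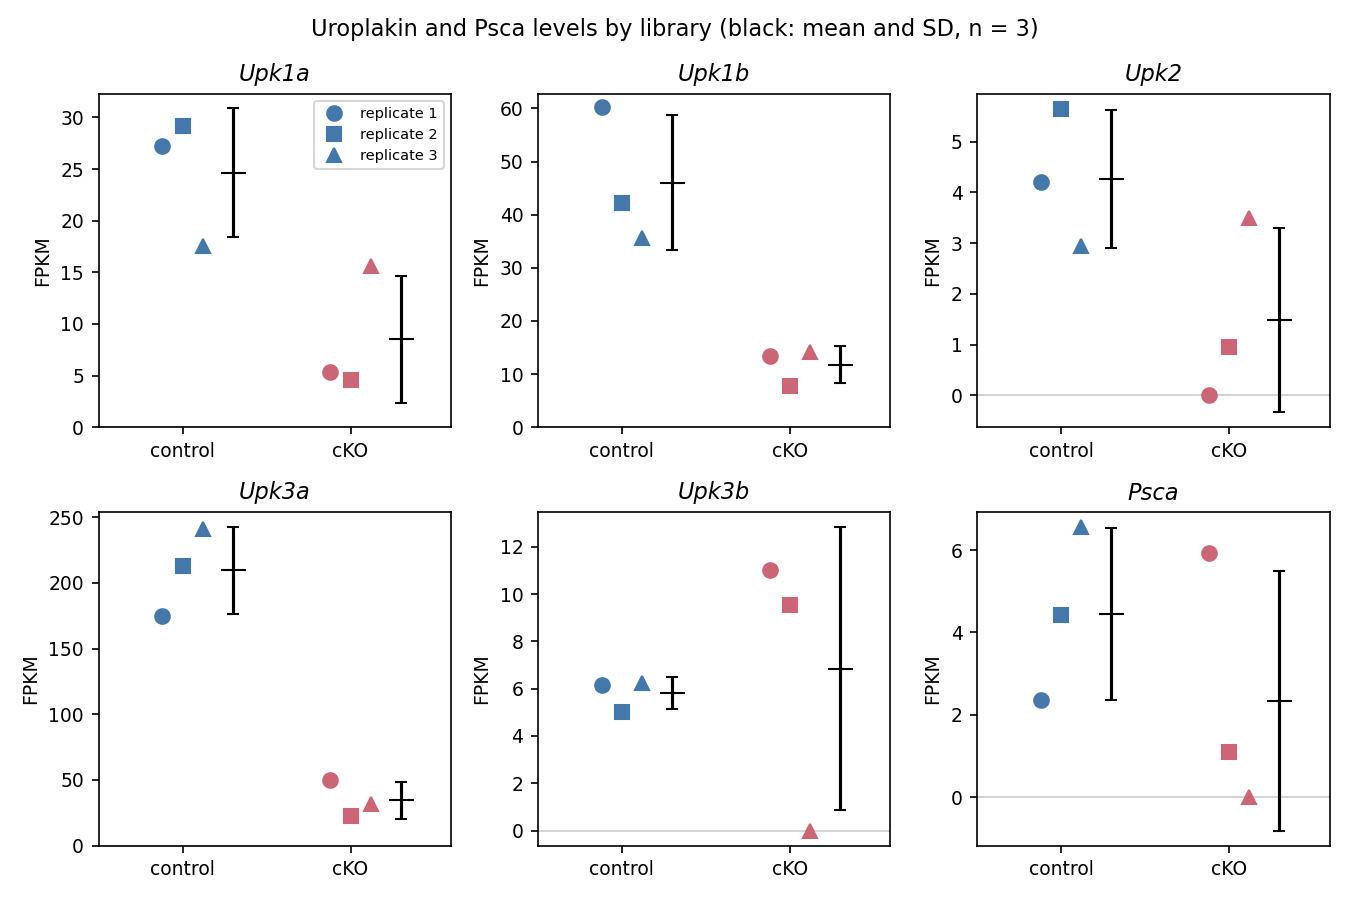
FPKM as deposited for each gene in 3 control (blue) and 3 cKO (red) libraries, with a marker shape for each replicate number and the mean ± SD in black. Upk3a and Upk1b are lower in every cKO library than in any control, and Upk3b and Psca are at 0 in cKO replicate 3.

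Upk3a and Upk1b fell in cKO cells. Upk3a had 2001, 2479 and 2798 counts in control replicates 1 to 3 and 543, 237 and 344 counts in cKO replicates 1 to 3. Each cKO library was at 10.2 to 23.6% of the mean control CPM, and the groups did not overlap. The level went from 235 ± 38.5 to 38.0 ± 16.0 CPM, which is 6.2-fold lower (log2 fold change -2.63, SE 0.318, edgeR adjusted p = 0.00846). It was of similar size without cKO replicate 3 (log2 fold change -2.57, edgeR adjusted p = 0.0116). Its call held in 5 of the 6 fits that left out 1 library and was lost without control replicate 3 (edgeR adjusted p = 0.0529).

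Upk1b, the tetraspanin that pairs with UPK3A, had 1173, 837 and 706 counts in controls and 249, 140 and 261 counts in cKO. The highest cKO library was at 29.6% of the control mean CPM and the lowest at 16.2%, below every control. The mean went from 87.9 ± 24.2 to 21.9 ± 6.66 CPM, with a log2 fold change of -2.01 (SE 0.314, edgeR adjusted p = 0.0172). The size of the change was stable between -2.16 and -1.77 over the fits that left out 1 library, but the call held in only 1 of these 6, the one without cKO replicate 3 (edgeR adjusted p = 0.0004). Leaving out control replicate 1, 2 or 3 gave an edgeR adjusted p of 0.0774, 0.0739 or 0.0621. Leaving out cKO replicate 1 or 2 gave 0.0509 or 0.0508.

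Over all genes tested, 3.59% fell and 3.52% rose (7.11% in either direction) at an edgeR adjusted p under 0.05, and 20.7% had every cKO library below every control. Of the 6 genes followed here 2 fell, none rose, and 3 (Upk3a, Upk1b and Upk1a) had every cKO library below every control. Their median log2 fold change was -1.57, against -0.04 over the 13047 genes tested. DESeq2 called 3 of the 6 as fallen, with Upk1a added, where 7.69% of all its tested genes fell and 8.05% rose. Limma-voom with library weights called 4, with Upk1a and Upk2 added, where 13.4% of all genes fell and 25.6% were called in either direction. Upk3bl, a uroplakin-like gene that is not among the 6, had 68, 64 and 39 counts in controls and 32, 28 and 0 counts in cKO and was not called (edgeR adjusted p = 0.609). In bulk RNA, fewer cells that make a transcript and less transcript per cell cannot be told apart.

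Upk1a and its partner gene Upk2 were both lowest in cKO replicates 1 and 2 and higher in cKO replicate 3. Upk1a had 369, 403 and 241 counts in controls and 69, 57 and 200 counts in cKO. Replicates 1 and 2 of the cKO were at 21.6% and 17.7% of the control mean CPM, and replicate 3 was at 61.0%, just below the lowest control at 72.0%. Upk1a was not called with 6 libraries (log2 fold change -1.58, SE 0.534, edgeR adjusted p = 0.136). Upk1a fell without cKO replicate 3 (log2 fold change -2.36, SE 0.286, edgeR adjusted p = 5.4e-05). In the fit without that library 14.9% of 13660 tested genes fell and 13.7% rose.

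Upk2 had 38, 52 and 27 counts in controls and 0, 8 and 30 counts in cKO. Replicate 3 of the cKO lay inside the control range, replicate 2 had 21.5% of the control mean CPM, and replicate 1 had no count, where 3 counts would be 0.304 CPM. Of 188 genes that had 8 to 60 counts in all 5 other libraries, only Upk2 was at 0 in cKO replicate 1 (0.532%). With all libraries Upk2 was not called (log2 fold change -1.56, SE 1.42, edgeR adjusted p = 0.59). When cKO replicate 3 was left out it fell (log2 fold change -3.18, SE 1.0, edgeR adjusted p = 0.0295), a fit that rests on 8 counts in the remaining cKO libraries together. The Upk1a to Upk2 ratio in FPKM was 4.76 and 4.45 in cKO replicates 2 and 3, a little below its control range of 5.18 to 6.49. This ratio was not tested, because Upk2 had under 10 counts in some libraries.

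Upk3b, the other partner of UPK1B, did not follow the genes above. It had 130, 108 and 133 counts in controls and 220, 187 and 0 counts in cKO. In cKO replicates 1 and 2 it was at 187% and 158% of the control mean CPM, above every control, and in replicate 3 it had no count. The cKO libraries thus lay on both sides of the controls, and Upk3b was not called with 6 libraries (log2 fold change 0.2, SE 1.39, edgeR adjusted p = 0.955). Upk3b rose once cKO replicate 3 was left out (log2 fold change 0.78, SE 0.256, edgeR adjusted p = 0.0358). The direction in the 6-library fit turned when cKO replicate 1 or 2 was left out (-0.34 and -0.1). Among 695 genes that had 100 to 250 counts in all 5 other libraries, 117 (16.8%) had none in cKO replicate 3, and none of the 285 to 309 such genes was at 0 in any other library. A level of 0 for Upk3b in that library is therefore shared with many genes of similar abundance.

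Psca had 21, 40 and 59 counts in controls and 50, 9 and 0 counts in cKO. The cKO libraries ran from 0 to 132% of the control mean CPM and overlapped the controls. Psca was not called (log2 fold change -0.95, SE 1.5, edgeR adjusted p = 0.772), nor was it without cKO replicate 3 (-0.37, SE 0.715, edgeR adjusted p = 0.741). It was not called in any of the 6 fits that left out 1 library. The fold change stayed below 0 in each of these fits, from -3.06 to -0.37, with replicate 1 of the cKO above the control mean. Of 746 genes that had 8 to 60 counts in all 5 other libraries, 406 (54.4%) were at 0 in cKO replicate 3.

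**Figure D2:**
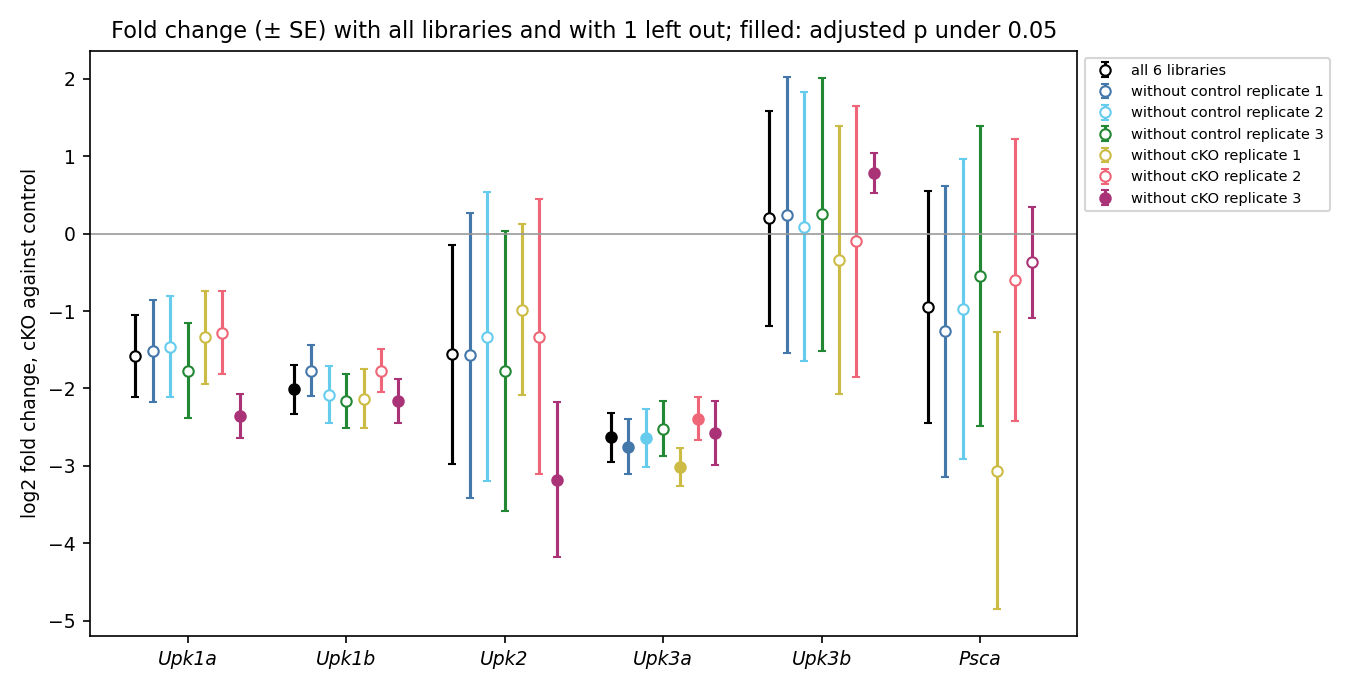
Log2 fold change of cKO against control (y axis, ± SE) for each gene with all 6 libraries and with each library left out in turn. Filled points have an edgeR adjusted p under 0.05. Upk3a and Upk1b keep a similar size in every fit, and Upk1a, Upk2 and Upk3b pass the threshold in the fit without cKO replicate 3 alone.

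Leaving out cKO replicate 3 thus gave 4 genes that fell (Upk3a, Upk1b, Upk1a and Upk2), 1 that rose (Upk3b) and 1 that was not called (Psca). The median over the 6 was -2.26, against 0.01 over all genes tested in that fit. In that fit 14.9% of all genes fell and 13.7% rose. The 4 that fell there are the 4 genes, and the only ones in the deposited annotation, that carry the term apical plasma membrane urothelial plaque. With all 6 libraries 2 of these 4 fell, and in each other fit that left out 1 library 0 or 1 did. The term holds no gene beyond these 4, so it says no more than their names. Upk3b and Psca do not carry the term.

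The summed level of the 5 uroplakins was 272, 295 and 303 FPKM in controls and 79.5, 45.0 and 64.9 FPKM in cKO. Upk3a made up 64.1 to 79.4% of that sum in controls and 48.8 to 62.6% in cKO. Upk3b took 1.71 to 2.26% in controls, and 13.8% and 21.2% in cKO replicates 1 and 2. In controls Upk3a exceeded Upk3b 28.3, 42.3 and 38.7 times in FPKM, and in the same cKO libraries 4.54 and 2.33 times. The ratios to Upk3b were not tested, since Upk3b was at 0 in cKO replicate 3.

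**Figure D3:**
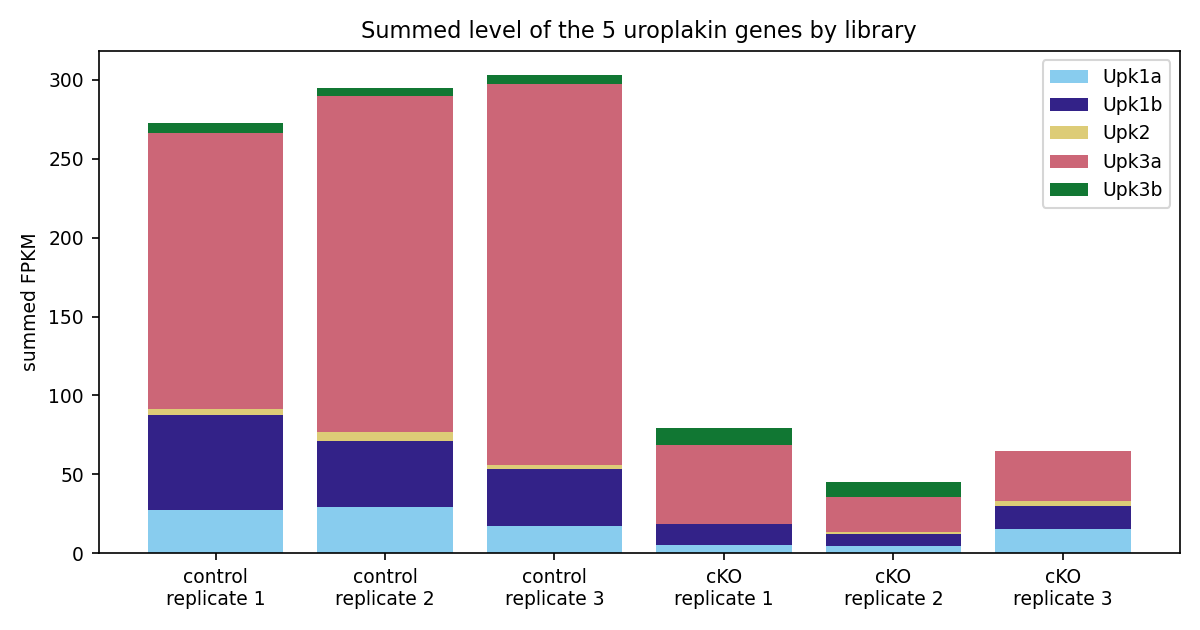
Stacked FPKM of the 5 uroplakin genes in each library. The sum is 272 to 303 FPKM in controls and 45.0 to 79.5 FPKM in cKO, with Upk3a the largest part throughout.

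Whether Upk1b and Upk3a changed by the same factor was tested on the log2 ratio of their counts (with 0.5 added). The ratio of Upk1b to Upk3a was -1.44 ± 0.617 in controls and -0.76 ± 0.363 in cKO (SD, n = 3 each), a difference of 0.68 (two-sided exact permutation test, p = 0.2). The smallest p this test allows with 3 against 3 libraries is 0.1, so it could not pass 0.05. The difference was 0.41 without control replicate 3 and 1.02 without control replicate 1. The control and cKO ratios overlapped.

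Genes with the most similar course over the 6 libraries were found for each member among 10610 genes, by the root mean square difference of log2 CPM relative to each gene's own control mean. The 6 libraries share the genotype contrast and the many genes at 0 in cKO replicate 3, so nearness describes these libraries only. Nearest to Upk3a were Sgpp1, a phosphatase of sphingosine-1-phosphate (difference 0.29), Lmbr1 (0.29) and Sh3bgrl2 (0.33). The nearest to Upk1b were Fancd2, a DNA crosslink repair gene (0.19), Pgap4, an enzyme that decorates lipid anchors (0.23), and Ube2c, a mitotic ubiquitin-conjugating enzyme (0.24). Upk1a lay closest to Npdc1 (0.19), the riboflavin transporter gene Slc52a3 (0.23) and Rgl2 (0.24), and Upk2 to Lpl, lipoprotein lipase (0.52), Frmd5 (0.73) and Rgl2 (0.74). Among the members themselves, Upk1a and Upk1b were nearest (0.5), and Upk1b and Upk3a were next (0.64). For Upk1a, Upk1b and Upk3a the 3 named genes were nearer than any other member, and for Upk2 they were also nearer than Upk1a (0.91). The genes nearest to Upk3b, Arhgef17 (0.08), Fbxo6 (0.15) and Vkorc1l1 (0.18), were all at 0 in cKO replicate 3. Psca lay nearest to Pon3 (0.47), the acetyltransferase gene Kat2b (0.6) and Adnp2 (0.62).

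Of 16 other listed urothelial markers, 12 were tested with edgeR, none fell and 1 rose, against 3.59% and 3.52% of all genes. Their median log2 fold change was 0.16. DESeq2 called 2 as fallen, limma-voom with library weights 1, and edgeR without cKO replicate 1 called 2. The riser was Adh7, a retinol-metabolising alcohol dehydrogenase, at 40, 39 and 35 counts in controls and 460, 361 and 154 counts in cKO (log2 fold change 3.16, SE 0.484, edgeR adjusted p = 0.0158). Its call held in 1 of 6 fits with a library left out (up to 0.0919 for the edgeR adjusted p, reached without control replicate 3). The simple keratin genes Krt8 (-0.55, edgeR adjusted p = 0.191) and Krt18 (-0.68, edgeR adjusted p = 0.109), both also in the list of UB epithelial markers, were not called. In the fit without cKO replicate 3, none fell and 4 rose, where 14.9% of all genes fell and 13.7% rose. The rises were Adh7 (3.49), Trp63, the basal cell regulator (2.19), Krt20, a keratin of surface cells (2.24), and Ivl, a cornified envelope protein (2.03). Krt20 had 8, 18 and 34 counts in controls and 113, 69 and 0 counts in cKO. Ivl had 30, 39 and 19 counts in controls and 164, 65 and 0 counts in cKO. With 6 libraries Trp63, Krt20 and Ivl were not called (edgeR adjusted p = 0.238, 0.61 and 0.652).

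The transcription factors known in urothelium were mixed. Of 17 tested, 2 fell and none rose (median -0.46), where 3.59% of all genes fell and 3.52% rose. Ehf, an ETS factor of epithelia, fell by 0.79 on the log2 scale (SE 0.159, edgeR adjusted p = 0.0357), and Gata3 fell by 0.76 (SE 0.148, edgeR adjusted p = 0.0325). Their calls held in 1 and 2 of 6 fits with a library left out, with highest edgeR adjusted p of 0.143 and 0.131, both without control replicate 2. Gata2 was at -0.79 (edgeR adjusted p = 0.0702). Gata3 is also 1 of the 16 UB epithelial markers given below, of which 6 fell. Leaving out cKO replicate 3, 6 fell and 3 rose (Trp63, Grhl3 and Stat3), in a fit where 14.9% of all genes fell and 13.7% rose. Pparg, a nuclear receptor of urothelial differentiation, was among those that fell there (log2 fold change -1.78, edgeR adjusted p = 0.0058). It had 163, 261 and 106 counts in controls and 63, 35 and 0 counts in cKO, and it was not called with all 6 libraries (edgeR adjusted p = 0.353). Grhl3, a factor of surface cell differentiation, was among those that rose there (1.17, edgeR adjusted p = 0.0241). Pparg, Grhl3, Stat3, Trp63, Krt20 and Ivl were named after their values were seen.

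Genes for the traffic of uroplakin vesicles had 1 fall among 15 tested and a median of -0.02, where 3.59% of all genes fell. Mal, a raft protein that the deposited annotation places in the hinge between urothelial plaques, fell from 196 ± 17.9 CPM in controls to 82.7 ± 28.5 CPM in cKO (a log2 fold change of -1.25, SE 0.247, edgeR adjusted p = 0.0341). Its call held in 2 of 6 fits with a library left out (up to 0.137 for the edgeR adjusted p, reached without control replicate 3). Snx31, a sorting nexin that binds uroplakins, had 551, 483 and 546 counts in controls and 63, 49 and 0 counts in cKO. All its cKO libraries lay far below the controls, yet it was not called with 6 libraries (log2 fold change -3.75, SE 1.15, edgeR adjusted p = 0.109). It fell without cKO replicate 3 (log2 fold change -3.17, SE 0.227, edgeR adjusted p = 7.51e-07). Rab15 was at -1.27 (edgeR adjusted p = 0.0689). When cKO replicate 3 was left out, 4 of the 15 fell (Snx31, Mal, Rab15 and Rab13) and Tollip rose. In that fit 14.9% of all genes fell and 13.7% rose. Rab13 and Tollip were named after their values were seen.

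**Figure D4:**
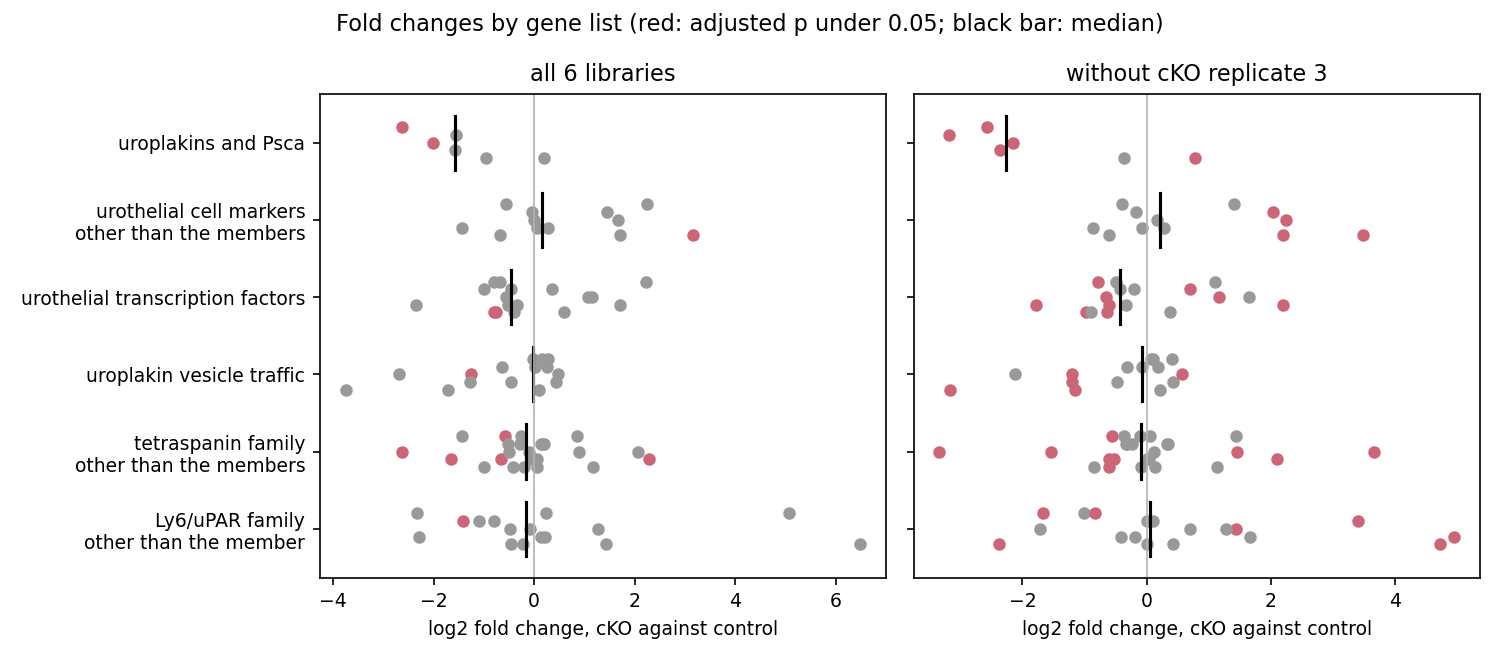
Log2 fold change of cKO against control (x axis) for tested genes of each list, with all 6 libraries (left) and without cKO replicate 3 (right). Red points have an edgeR adjusted p under 0.05, and black bars are medians. The medians of the 5 other lists lie between -0.46 and 0.16 on the left, against -1.57 for the uroplakins and Psca. On the right they lie between -0.43 and 0.22, against -2.26.

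The protein families of the members were compared as well. With 6 libraries 3.59% of all tested genes fell and 3.52% rose, and without cKO replicate 3 these shares were 14.9% and 13.7%. Among 24 other tested tetraspanins, the family of UPK1A and UPK1B, 4 fell and 1 rose (median -0.16), and 6 of 25 fell and 3 rose without cKO replicate 3 (median -0.09). Cd81 fell from 226 ± 19.4 CPM in controls to 36.8 ± 24.8 CPM in cKO (a log2 fold change of -2.62, SE 0.445, edgeR adjusted p = 0.021), and Cd9 fell by 0.57 (SE 0.0825, edgeR adjusted p = 0.0133). Tspan7 (-1.66, edgeR adjusted p = 0.024) and Tspan15 (-0.65, edgeR adjusted p = 0.0428), named after their values were seen, also fell. Each of these calls held in 1 of 6 fits with a library left out (up to 0.147 and 0.163 for the edgeR adjusted p, both without control replicate 3). Tspan1 rose (log2 fold change 2.29, SE 0.372, edgeR adjusted p = 0.0191). The call of Cd81 held in 1 of 6 fits with a library left out, and those of Cd9 and Tspan1 in 2 of 6. Without control replicate 3 the edgeR adjusted p reached 0.0948 for Cd81 and 0.0839 for Cd9, and without control replicate 2 it reached 0.1 for Tspan1. Of 16 other tested members of the Ly6/uPAR family, to which PSCA belongs, 1 fell and none rose (median -0.16). Without cKO replicate 3, 3 of 18 fell and 4 rose (median 0.05), and DESeq2 and limma-voom with library weights on all libraries also gave 3 and 4. The gene that fell with 6 libraries was Ly6e (log2 fold change -1.42, SE 0.203, edgeR adjusted p = 0.0131), whose call held in 2 of 6 such fits (up to 0.0693 for the edgeR adjusted p, reached without control replicate 3). Ly6h (-2.33, edgeR adjusted p = 0.0703) and Lypd6 (-0.8, edgeR adjusted p = 0.0599) were not called with 6 libraries. Both fell in the fit without cKO replicate 3, where Ly6a, Ly6c1, Ly6f and Ly6g, named after their values were seen, rose.

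Markers of other cell types moved with the genotype in several lists. Among all tested genes, 3.59% fell and 3.52% rose with 6 libraries, against 14.9% and 13.7% without cKO replicate 3. Mesothelial markers other than Upk3b summed to 29.8 to 42.7 CPM in controls and 80.5 to 96.2 CPM in cKO. Of 6 tested, with Upk3b among them, 1 rose and none fell. It was Gpm6a, a membrane glycoprotein shared with neurons, at 7.0 ± 3.11 CPM in controls and 47.9 ± 2.96 CPM in cKO (edgeR adjusted p = 0.0133). Its call held in 3 of 6 fits with a library left out (up to 0.0712 for the edgeR adjusted p, reached without control replicate 1). Msln, the defining mesothelin gene, had 161, 280 and 306 counts in controls and 332, 142 and 0 counts in cKO, so its groups overlapped, and Wt1 had at most 14 counts in any library. Smooth muscle markers summed to 4.4 to 10.7 CPM in controls and 106 to 206 CPM in cKO, where 3 of 3 tested rose (Acta2, Cnn1 and Tagln). With a library left out, the call of Cnn1 held in 6 of 6 fits, that of Tagln in 4 (edgeR adjusted p up to 0.0645) and that of Acta2 in 1 (up to 0.0827), both highest without control replicate 1. The smooth muscle list had 4 of 4 tested rise when cKO replicate 3 was left out. Myocd and Des had at most 4 and 11 counts in any library, and Myh11 had at most 6 except for 139 in cKO replicate 3. Basal epithelial markers, of which 1 of 4 tested rose (Krt17), summed to 15.8 to 20.9 CPM in controls and 78.5 to 172 CPM in cKO. Krt17 alone went from 0.708 ± 0.382 CPM in controls to 81.4 ± 34.5 CPM in cKO. In the fit without cKO replicate 3, 3 of 5 tested basal markers rose and none fell. The basal keratin gene Krt5 had at most 12 counts in any library. Trp63 had 59, 118 and 119 counts in controls and 408, 455 and 57 counts in cKO, so its groups overlapped. UB epithelial markers moved down, with 6 of 16 that fell and a median of -0.7. With cKO replicate 3 left out, 9 of 16 fell and none rose (median -0.62). Hoxb7, whose promoter drives the transgene, was at 321 ± 14.8 CPM in controls and 130 ± 23.8 CPM in cKO. Nephron markers summed to 359 to 428 CPM in controls and 441 to 488 CPM in cKO, and of 4 tested 1 rose and none fell. It was Jag1, a Notch ligand (log2 fold change 1.19, edgeR adjusted p = 0.0496), whose call held in 1 of 6 fits with a library left out (up to 0.192, without control replicate 2). Pax8 (-0.26) and Lhx1 (-1.0) were not called, and without cKO replicate 3 both fell, with 2 of 6 fallen and 2 risen in that list. Mean CPM of Jag1 went from 99.8 to 227 and that of Cited1 from 4.9 to 14.3. Pax8 went from 244 to 204 CPM and Lhx1, which is also in the UB list, from 46.2 to 23.1 CPM. Six2, Cubn and Nphs1, named after their values were seen, had at most 7, 10 and 2 counts in any library. The sums of stromal (10.1 to 26.2 and 2.19 to 18.6 CPM), endothelial (34.0 to 42.3 and 27.5 to 42.4 CPM), immune (43.5 to 85.3 and 55.8 to 91.2 CPM) and erythroid markers (0.687 to 404 and 0 to 36.6 CPM) overlapped between controls and cKO. Among endothelial markers 1 of 4 tested rose without cKO replicate 3, where no stromal, immune or erythroid marker was called. The part of the listed cell types in the values of the uroplakins and Psca was not tested.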

How the data were processed

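The authors deposited raw read counts per gene and FPKM values for 6 libraries of sorted UB cells. The submitters' processing notes name HISAT2, HTSeq, Cufflinks, DESeq and GRCm39 but assign them no step. Whether counting used strand is not stated there. The deposited FPKM equals the counts over 1 length per gene and 1 factor per library (largest relative deviation 2.21e-07), so it is no independent measurement. Counts were fitted with edgeR 4.0.16 in R 4.3.3: filterByExpr (13047 genes), TMM scaling, robust quasi-likelihood F-test with the group as the term, Benjamini-Hochberg adjustment over all genes tested, and calls at an adjusted p under 0.05. The SE is the log2 fold change over the square root of F. Reported CPM is TMM-scaled. Floors of 3 counts (0.285 to 0.312 CPM per library) cover counting error only. The SDs and SEs also hold the variation between libraries. Alternatives used DESeq2 1.42.0, and limma 3.58.1 on voom values or log2(FPKM + 1). The steps were tested on simulated data. In the simulated counts for edgeR, no library was given added zeros like those of cKO replicate 3, so that test does not cover such a library.

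No 2 libraries of a group looked like 1 library deposited again (chi-square over degrees of freedom, 10.2 to 75.6). Members and lists were chosen with earlier results of these data known. Named genes are the members, the 3 nearest genes to each, the 3 smallest p of each gene list, up to 4 most abundant markers per cell type list, Ash2l and Hoxb7. Urothelial and family lists matched 16 of 16, 18 of 18, 15 of 15, 27 of 29 and 29 of 36 genes in the table. Promoters are RefSeq's, matched by Entrez Gene identifier for 3 of 6 members.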

Additional observations from a re-analysis of the deposited data

How the results depend on the processing

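Over the fits that left out 1 library, 59 to 2032 genes fell and 62 to 1865 rose in all, and 0 to 4 of the 6 genes followed here fell and 0 to 1 rose. Without cKO replicate 3 the numbers were 2032, 1865, 4 and 1. With DESeq2, 1061 genes fell and 1111 rose, with limma-voom and library weights 1743 and 1594, and with limma on log2(FPKM + 1) 745 and 720. Limma-voom with library weights called 4 of the 6 genes as fallen. DESeq2 called Upk1a (log2 fold change -1.58, adjusted p = 0.0389), and limma-voom with library weights called Upk1a (-2.29, adjusted p = 0.00604) and Upk2 (-3.87, adjusted p = 0.0379). Fold changes over the fits that left out 1 library ranged from -2.36 to -1.28 for Upk1a, -2.16 to -1.77 for Upk1b, -3.18 to -0.98 for Upk2, -3.01 to -2.39 for Upk3a, -0.34 to 0.78 for Upk3b and -3.06 to -0.37 for Psca. Upk3b changed sign on log2(FPKM + 1) (-0.44) and log2(FPKM + 0.1) (-1.42), and without cKO replicate 1 (-0.34) or 2 (-0.1). The cause was not tested.

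Same-numbered libraries did not deviate together (correlations across genes of -0.022, 0.025 and -0.00145), so the numbers are not taken as pairs. With the replicate number as a block, 11 genes fell and 12 rose, and 0 of the 6 genes were called. The blocked fold changes were -2.7 for Upk3a (adjusted p = 0.0605), -2.02 for Upk1b (adjusted p = 0.0647) and -0.67 for Upk3b (adjusted p = 0.889).

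Log2 ratios between pairs, cKO minus control, changed sign in the 3 pairs where 1 gene was at 0 in a library. The ratio of Upk1b to Upk3a ranged from 0.41 to 1.02 over the fits that left out 1 library. The ratio of Upk1b to Upk3b was 0.09 with 6 libraries, -0.56 with 2 counts added, -0.13 without control replicate 3, and -2.96 to 1.76 over all fits that left out 1 library. That of Upk1a to Upk2 was 1.08, and -0.38 (without cKO replicate 1) to 1.83 over those fits. That of Upk3a to Upk3b was -0.59, and 0.6 and 1.08 without cKO replicates 1 and 2, with -3.46 to 1.08 over those fits.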
